A study of Mus musculus with 21 samples.

Results

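The comparison concerned the prefrontal cortex of mice given trientine, a copper-chelating drug abbreviated TETA, against that of mice given water. All libraries of the 7-week table entered it, so 9 of the 21 libraries of the series were used: 5 control and 4 TETA. Both groups were 7 weeks old and male, and the extraction protocol names the prefrontal cortex, while the tissue label of each library reads only brain. The labels call the TETA group copper-deficient. Strain, dose, route, start and length of treatment, and the borders of the dissection are not given in the sources used here, and no allele or transgene is named for either group. Nothing says that the replicate libraries came from separate animals, so the p-values measure the spread between these samples, which may be technical in part. The remaining 12 libraries, from embryonic day 18.5 (E18.5), were used only to test whether the TETA effect differed between ages.

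Copper is a cofactor of cytochrome c oxidase, of the antioxidant enzyme Sod1 and of enzymes that make noradrenaline and amidated neuropeptides. Trientine binds copper and promotes its excretion, and it is a medicine for copper overload. The prefrontal cortex is built of layered glutamatergic neurons, GABA interneurons, glia and vessels, and it is covered by the meninges. The striatum lies beneath it. Its projection neurons carry dopamine receptors of the D1 or D2 type, signal through cyclic AMP, and express many genes at levels that cortical neurons do not reach, and its large interneurons are cholinergic. Genes of these neighbours therefore also report what a dissection took in, and in bulk RNA fewer cells of a type and less RNA per cell cannot be told apart.

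The libraries were stranded poly(A) RNA libraries. Total counts ran from 18696071 to 24035857 in control and from 17838051 to 23102120 in TETA. Transcripts of Y-linked genes were present in all 9 libraries, and Slc17a7, which encodes the vesicular glutamate transporter of cortical excitatory neurons, was at 1584 to 1780 CPM, a read count scaled to a common library total. On the first principal component, which held 30.6% of the variance, control libraries lay between -13.7 and -7.38 and TETA libraries between 10.6 and 18.

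The promoters of 4 genes are shown because they belonged to the most clearly separated genes in each direction and had an entry in the RefSeq promoter table (GRCm38.p6, the build also called mm10). Each runs 5′ to 3′ on the strand of its gene, from 250 bases before the start site to 50 after it. Capitals mark matches to any of 6 motifs searched on both strands. These were the cyclic AMP response element TGACGTCA, its core TGACG, the EGR site GCGTGGGCG, the GC box GGGCGG, the metal response element TGCACNC or TGCGCNC, and the TATA box TATAAA. Snhg11 and Sfpq were higher in TETA, and Rgs9 and Gng7 were lower. The window of Snhg11 is chr2:158375463-158375762 on the plus strand, that of Sfpq chr4:127021051-127021350 on the plus strand, that of Rgs9 chr11:109298132-109298431 on the minus strand, and the first of the 2 of Gng7 chr10:81014876-81015175 on the minus strand.
Snhg11: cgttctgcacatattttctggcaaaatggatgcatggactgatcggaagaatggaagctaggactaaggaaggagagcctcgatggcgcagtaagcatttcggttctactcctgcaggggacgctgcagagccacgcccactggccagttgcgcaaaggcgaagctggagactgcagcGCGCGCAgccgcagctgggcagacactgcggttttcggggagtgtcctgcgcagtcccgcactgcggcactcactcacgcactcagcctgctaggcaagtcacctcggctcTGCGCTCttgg
Sfpq: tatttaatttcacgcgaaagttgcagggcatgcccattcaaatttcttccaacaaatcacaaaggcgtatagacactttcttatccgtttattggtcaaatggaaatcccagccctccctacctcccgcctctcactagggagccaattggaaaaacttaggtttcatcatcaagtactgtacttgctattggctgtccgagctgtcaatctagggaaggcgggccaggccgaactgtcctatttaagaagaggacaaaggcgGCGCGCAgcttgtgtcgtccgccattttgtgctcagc
Rgs9: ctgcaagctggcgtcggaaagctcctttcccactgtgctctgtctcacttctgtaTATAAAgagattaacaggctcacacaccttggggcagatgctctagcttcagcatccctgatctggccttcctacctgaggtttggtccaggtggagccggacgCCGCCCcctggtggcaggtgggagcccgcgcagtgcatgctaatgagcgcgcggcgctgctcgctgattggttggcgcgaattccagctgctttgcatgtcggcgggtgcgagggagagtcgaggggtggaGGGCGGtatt
Gng7: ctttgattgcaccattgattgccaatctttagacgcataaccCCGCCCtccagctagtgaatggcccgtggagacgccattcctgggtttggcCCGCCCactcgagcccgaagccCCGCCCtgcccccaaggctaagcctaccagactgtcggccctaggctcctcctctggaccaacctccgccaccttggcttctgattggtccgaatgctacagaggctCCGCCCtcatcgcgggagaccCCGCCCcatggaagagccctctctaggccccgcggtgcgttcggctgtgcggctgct
The matches were metal response elements in Snhg11 and Sfpq, a TATA box and 2 GC boxes in Rgs9, and 5 GC boxes in Gng7. No window held the full cyclic AMP response element, its core or the EGR site. A match describes letters only.

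Across all genes, 21872 symbols were listed and 14240 passed the filter on low counts. Of these, 1418 (9.96%) had a p under 0.05 after Benjamini-Hochberg adjustment in the quasi-likelihood test of edgeR: 808 (5.67%) were higher and 610 (4.28%) were lower in TETA. These shares are the background for every list below. The lists were written with the fall of striatal genes and the rise of Egr3, Snhg11, Ttc14, Sfpq and Nptx1 already known. Shares of the lists that hold such genes are therefore no independent support. In each list the 4 called genes of smallest p could be named, with the first 2 markers of each cell class and 9 copper and metallothionein genes whatever their values. Any list member named outside these and the overall rankings was picked after its values were seen. The median absolute log2 fold change of the called genes was 0.238. Large changes were nearly all decreases: of 56 called genes beyond 1 on the log2 scale, 50 were lower and 6 were higher. Without TMM factors, which correct library sizes for composition, 67.6% of 1483 called genes were higher, against 57.0% with them. Without TETA replicate 3, the library with the lowest striatal marker level, 927 genes were called.

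The genes were read through 63 lists, 24 of cell classes and 39 of pathways, with 1311 distinct genes tested. In 7 cell class lists and in 2 pathway lists no member passed. A list level, the mean over tested members of log2 CPM with each gene centred over the 9 libraries, did not overlap between groups for 17 lists. It was lower in TETA for 14 of them and higher for 3: splicing regulators, nuclear and intron-retaining transcripts, and hypoxia and glycolysis. In the last of these the members did not lean higher: 11 of 25 had a log2 fold change above 0 and 14 below, with a median of -0.04.

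**Figure D1:**
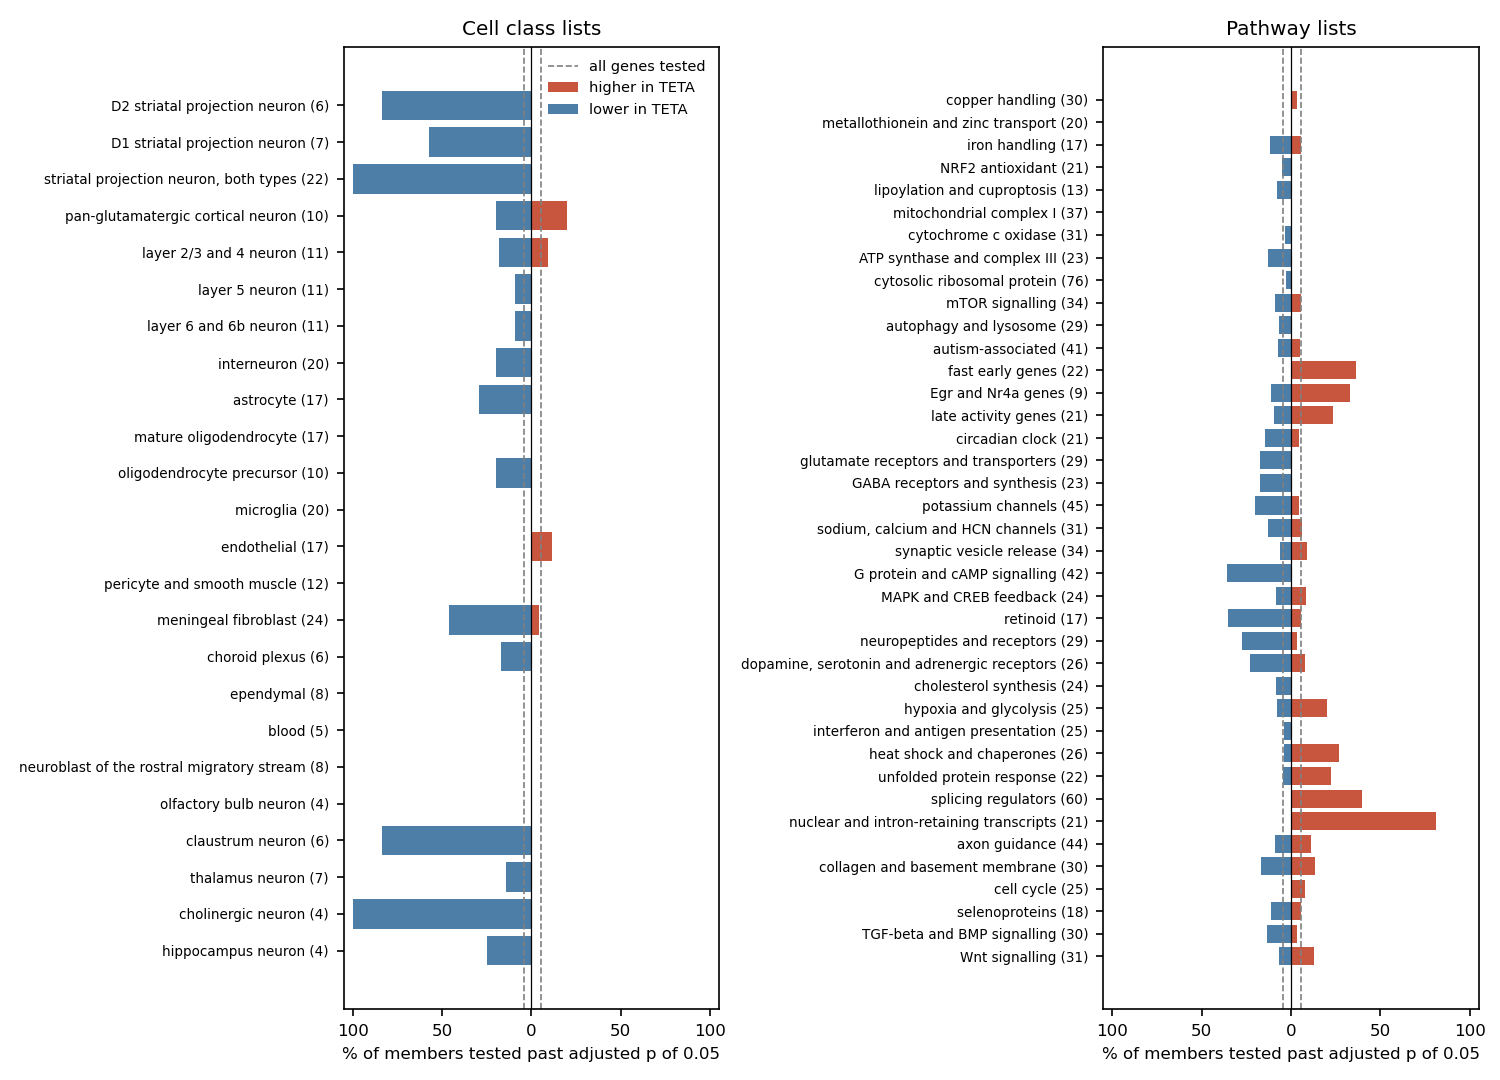
Bars give the percentage of tested members of each list that passed the adjusted p of 0.05 in TETA against control at 7 weeks, to the right for higher and to the left for lower, with the number tested in brackets and dashed lines at 5.67% and 4.28% for all genes tested. Striatal, cholinergic and claustrum lists reach furthest to the left, and the nuclear transcript list, with 17 of 21 members, furthest to the right.

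Of 35 markers of striatal projection neurons tested, 31 fell in TETA, where 4.28% of all genes tested passed as lower, and the other 4 had a log2 fold change below 0. The 31 that passed also had no overlap between the groups, as had 11.2% of all genes tested. All 22 members of the list shared by both neuron types fell, with a median log2 fold change of -0.96 and a range of -3.02 to -0.19. Of 6 markers of the D2 type, 5 fell, with a list median of -1.81. Of 7 markers of the D1 type, 4 fell, with a list median of -0.37.

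Drd2 (chr9:49340360-49408177), the dopamine D2 receptor gene, was at 24.8, 15.1, 21, 20.1 and 16.7 CPM in the control libraries. In the TETA libraries it was at 5.24, 5.3, 1.72 and 3.32 CPM, and its log2 fold change was -2.34 (SE 0.2). Every TETA library was below every control library, and TETA replicate 3 was the lowest. The same order was seen for Adora2a (chr10:75316877-75334792), an adenosine receptor gene of the same neurons, at 25.4 to 35.8 CPM in control and at 7.69, 7.3, 3.35 and 6.16 CPM in TETA. Penk (chr4:4133536-4138815), which encodes the enkephalin precursor, was at 152, 105, 128, 134 and 97.3 CPM in control and at 47.2, 49, 31.6 and 37.5 CPM in TETA, so that its log2 fold change was -1.58 (SE 0.12). Gpr6, an orphan receptor gene, fell from 9.38 ± 1.02 to 2.29 ± 1.12 CPM (mean ± SD, n = 5 and 4).

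Among D1-type markers, Drd1 (chr13:54051183-54055658), the dopamine D1 receptor gene, was at 32.4, 26.7, 34.8, 31.6 and 25.7 CPM in control and at 17.6, 17.1, 10.5 and 13.3 CPM in TETA, so that its log2 fold change was -1.05 (SE 0.12). Tac1, the substance P precursor gene, was at 23.4 to 30.3 CPM in control and at 16.6, 14, 12.5 and 12.3 CPM in TETA, so that its log2 fold change was -0.96 (SE 0.091). Neither gene overlapped between groups. Pdyn, the dynorphin precursor gene, fell by 0.37 on the log2 scale (SE 0.055) from 29.2 ± 1.59 CPM, and Isl1, a transcription factor gene of D1-type neurons and of cholinergic neurons, fell from 0.909 ± 0.295 to 0.132 ± 0.0925 CPM, a level of few counts. The other 3 D1-type members did not pass: Chrm4 was at 25.8 ± 2.76 and 24.8 ± 1.64 CPM, Eya1 at 9.35 ± 0.949 and 9.33 ± 1.33 CPM, and Ebf1 at 2.77 ± 0.588 and 2.71 ± 0.55 CPM. Of the D2-type list, Sp9 did not pass, at 5.82 ± 0.374 and 4.55 ± 0.807 CPM.

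In the list shared by both types, Ppp1r1b (chr11:98348406-98357796), which encodes a phosphatase inhibitor that relays dopamine signals, was at 217, 181, 202, 212 and 180 CPM in control and at 101, 105, 75 and 94.4 CPM in TETA, so that its log2 fold change was -1.08 (SE 0.075). Rgs9 (chr11:109225348-109298181), a regulator of G protein signalling whose promoter is printed above, was at 43.3 to 52.5 CPM in control and at 20.4, 21.5, 14.7 and 16.9 CPM in TETA. In both genes TETA replicate 3 was the lowest library. Six3, a transcription factor gene of D2-type neurons, was placed in this shared list and gives its lowest log2 fold change, -3.02 (SE 0.37). It had the largest decrease of the called genes with a mean of at least 1 CPM in either group, from 4.35 ± 1.07 to 0.534 ± 0.507 CPM. It was at 1.12, 0.78, 0 and 0.241 CPM in TETA replicates 1 to 4, so its fitted fold rests on few counts. Serpina9 fell from 3.7 ± 0.645 to 0.535 ± 0.253 CPM.

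Cholinergic neurons gave 4 tested markers and all 4 fell, with a median log2 fold change of -1.59. Chat (chr14:32408203-32465909), which makes acetylcholine, was at 2.35, 2.05, 2.47, 2.55 and 2.19 CPM in control and at 0.644, 0.446, 0.258 and 0.577 CPM in TETA, so that its log2 fold change was -2.25 (SE 0.23). Slc5a7, the choline transporter gene, was at 2.96 to 5.14 CPM in control and at 1.29, 1.62, 1.46 and 1.11 CPM in TETA. Slc18a3, the vesicular acetylcholine transporter gene, fell from 1.39 ± 0.183 to 0.448 ± 0.119 CPM. Zic1, a transcription factor gene of basal forebrain lineages, fell by 0.22 on the log2 scale (SE 0.064), a call that was lost without TETA replicate 1, 3 or 4 or control replicate 2 or 4. Slc10a4, a vesicular protein gene of cholinergic and monoamine neurons that is in no list, fell from 1.11 ± 0.18 to 0.155 ± 0.141 CPM.

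Claustrum markers, of a thin sheet of neurons between cortex and striatum, fell in 5 of 6 members, with a median log2 fold change of -0.40. Nr4a2 (chr2:57106830-57124003), a nuclear receptor gene high in claustrum and deep cortex, was at 22.6, 20.6, 20.5, 19.8 and 23.1 CPM in control and at 14.9, 15.7, 13.6 and 16.7 CPM in TETA, so that its log2 fold change was -0.49 (SE 0.069). Gm45623 fell from 4.34 ± 0.705 to 1.97 ± 0.435 CPM, Gnb4, a G protein subunit gene, from 46.9 ± 3.18 to 37.7 ± 2.02 CPM, and Oprk1, the kappa opioid receptor gene, from 10.1 ± 1.36 to 6.77 ± 1.05 CPM. The list levels were 0.12 to 0.33 in control and -0.38 to -0.16 in TETA.

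**Figure D2:**
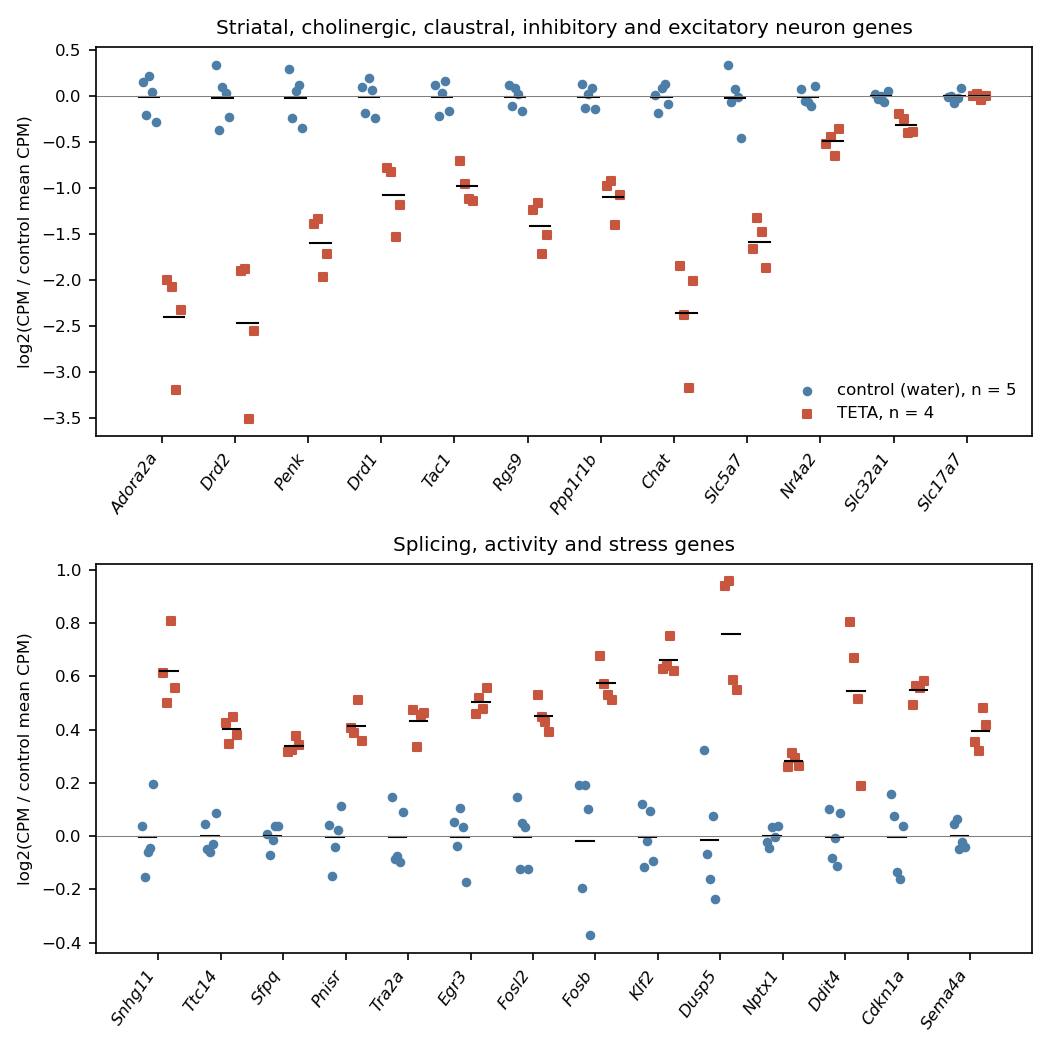
Each point is a library, plotted as log2 of its CPM over the mean CPM of the 5 control libraries, with short black lines at the group means. Striatal and cholinergic genes lie below 0 in every TETA library, Slc17a7 overlaps between groups, and the splicing, activity and stress genes of the lower panel lie above every control library.

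In the list of G protein and cyclic AMP signalling, 15 of 42 members fell and 0 rose. Of the 15, 7 were also in the striatal, cholinergic or claustrum lists, among them Gng7, a G protein subunit gene, at 185 to 228 CPM in control and 111, 111, 93.1 and 91.3 CPM in TETA. Adcy5, an adenylyl cyclase gene, was at 283 to 327 CPM in control and at 200, 194, 182 and 184 CPM in TETA, and Pde1b, a phosphodiesterase gene, fell from 221 ± 13.6 to 140 ± 7.03 CPM. Of the 8 outside those lists, Arpp21, a cyclic AMP regulated phosphoprotein gene, fell from 451 ± 25.4 to 382 ± 16.4 CPM, Rgs4, a regulator of G protein signalling, from 705 ± 46.7 to 604 ± 58.6 CPM, and Pde7b from 47.4 ± 4.24 to 36.6 ± 3.42 CPM. The median over all 42 members was -0.03, so the change was in a part of the list.

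In the retinoid list, 6 of 17 members fell and 1 rose, with a median log2 fold change of -0.28. Rxrg and Rarb, retinoid receptor genes of the striatum, fell by 1.53 and 0.93 on the log2 scale. They are the 2 of the 6 that are also in the striatal, cholinergic or claustrum lists. Aldh1a1, a retinaldehyde dehydrogenase gene, fell from 46.8 ± 5.15 to 35.5 ± 2.68 CPM. Rara, a retinoic acid receptor gene, rose from 12.2 ± 1.49 to 16 ± 0.731 CPM.

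Of 29 neuropeptide and receptor genes, 8 fell and 1 rose. Besides Penk, Tac1 and Pdyn these were Tacr1, the substance P receptor gene, which fell from 4 ± 0.213 to 1.83 ± 0.477 CPM, Oprk1, the interneuron peptide genes Npy and Cort, and Tacr3, a tachykinin receptor gene. Of the 8 that fell, 4 were also in the striatal, cholinergic or claustrum lists. Without TETA replicate 1 the count of called members was 5. Of 26 dopamine, serotonin and adrenergic receptor genes, 6 fell and 2 rose. Besides Drd2 and Drd1, Htr2c, a serotonin receptor gene, fell from 26.8 ± 2.68 to 20.1 ± 1.37 CPM and Htr1b, another, from 17.1 ± 2.74 to 12.5 ± 1.46 CPM. Drd2 and Drd1 are the 2 of the 6 that are also in the striatal, cholinergic or claustrum lists. The called members of the receptor list numbered 5, 5 and 4 without TETA replicate 1, 3 and 4, and 5 without control replicate 1.

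Markers of cortical excitatory neurons were mixed. Slc17a7 was at 1669 ± 70.6 and 1667 ± 32.3 CPM, and its log2 fold change was -0.00 (SE 0.03). Of the 10 general glutamatergic markers, Nptx1 and Neurod2 rose, Mef2c and Emx1 fell, and the median was -0.01. The call of Emx1 was lost without TETA replicate 2 or 3 or control replicate 2 or 5. Nptx1, a secreted synaptic pentraxin gene that is also an activity gene, was at 441, 434, 459, 447 and 460 CPM in control and at 536, 557, 549 and 538 CPM in TETA, with no overlap. In layers 2/3 and 4, Otof, a vesicle protein gene, rose from 19.7 ± 2.1 to 27.4 ± 5.04 CPM, and Wfs1 and Rorb fell, of 11 tested. The median was 0.04 over 11 layer 5 markers and -0.06 over 11 layer 6 markers. Vat1l and Syt6 passed among these, both lower. The layer 5 list gave 0 calls without TETA replicate 1, 2 or 4 or control replicate 1 or 4, and 2 without control replicate 3. The layer 6 list gave 0 calls without TETA replicate 1, 2 or 3 or control replicate 2 or 3, and 2 without control replicate 1. Markers that head the layer lists overlapped between groups: Cux2 was at 123 ± 2.39 and 124 ± 3.99 CPM, Fezf2 at 41.2 ± 3.98 and 44.5 ± 2.83 CPM, and Foxp2 at 18.4 ± 2 and 15.6 ± 1.67 CPM.

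Of 20 interneuron genes 4 fell and 0 rose, 9 had a log2 fold change above 0 and 11 below, and the median was -0.04. Without TETA replicate 1, 2 passed. Slc32a1 (chr2:158607260-158615747), the vesicular GABA transporter gene, was at 111, 107, 110, 105 and 114 CPM in control and at 95.7, 91.9, 82.9 and 83.8 CPM in TETA, so that its log2 fold change was -0.31 (SE 0.044). Gad2, which makes GABA, fell by 0.16 on the log2 scale (SE 0.033), while Gad1, which does the same, was at 337 ± 15 and 318 ± 6.13 CPM and did not pass. Striatal projection neurons are GABA neurons too and express these genes. Npy fell from 103 ± 5.14 to 90.8 ± 5.93 CPM, a call lost without TETA replicate 1, and Cort fell by 0.45 on the log2 scale (SE 0.12), a call lost without TETA replicate 1 or 2. Among 23 genes of GABA receptors and synthesis 4 fell, with Abat, which breaks GABA down, from 321 ± 14 to 278 ± 7.57 CPM.

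Astrocyte markers fell in 5 of 17 members and rose in 0, with a median log2 fold change of -0.07. Slc1a2, the main glutamate transporter gene, fell from 3905 ± 189 to 3383 ± 132 CPM. In all, 14 of the 17 members had a log2 fold change below 0. Among the members that did not pass, Gfap, an intermediate filament gene, was at 107 ± 6.06 and 98.4 ± 4.47 CPM, and Aqp4, a water channel gene, at 104 ± 7.27 and 103 ± 8.83 CPM. No member passed among 17 oligodendrocyte, 20 microglial and 12 pericyte and smooth muscle markers in edgeR, DESeq2 or limma voom, and 4, 2 and 5 of them had an unadjusted edgeR p under 0.05. The oligodendrocyte list gave 2 calls without TETA replicate 1 or control replicate 1, and 1 without TETA replicate 2 or control replicate 4. The pericyte and smooth muscle list gave 1 without control replicate 2 or 4. Cx3cr1, a microglial receptor gene, was at 53.4 ± 1.97 and 49.8 ± 0.892 CPM. Of 10 markers of oligodendrocyte precursors, Bmp4 and Pdgfra fell, and 1 passed without TETA replicate 1, 3 or 4 or control replicate 5. Of 17 endothelial markers 2 rose: Slc2a1, the glucose transporter gene of brain vessels, from 108 ± 12.5 to 139 ± 20.1 CPM, and Flt1, a growth factor receptor gene, from 61 ± 4.28 to 71 ± 4.75 CPM.

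Meningeal fibroblast markers fell in 11 of 24 members and rose in 1, with a median log2 fold change of -0.36. Mgp (chr6:136872435-136875823), a matrix protein gene, was at 18.9, 21.5, 22.7, 18 and 22.6 CPM in control and at 11.9, 11.9, 18.5 and 13.4 CPM in TETA. It overlapped between groups through TETA replicate 3, although it passed with a log2 fold change of -0.57 (SE 0.11). Ptgds, a prostaglandin synthase gene, was at 640, 710, 763, 711 and 752 CPM in control and at 453, 563, 659 and 567 CPM in TETA, with the same overlap. Fn1, the fibronectin gene, was at 80.6, 75.2, 81.9, 80.9 and 86.6 CPM in control and at 57, 69.3, 69.7 and 60.7 CPM in TETA, with no overlap. Dcn, the decorin gene that heads the list, was at 7.71 to 11.8 CPM in control and 6.27 to 10.8 CPM in TETA and did not pass. TETA replicate 1 was the lowest library for Dcn and Fn1, and it shared the lowest value for Mgp with TETA replicate 2.

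Of 30 collagen and basement membrane genes 4 rose and 5 fell, and 20 had a log2 fold change below 0. The level of that list overlapped between groups. Within TETA it was lowest in replicate 1, at -0.157, and highest in replicate 3, at 0.054, the same libraries in which the meningeal list was lowest and highest, at -0.54 and 0.052. Col4a1 (chr8:11198423-11312889), a collagen gene of vessel basement membranes, was at 38.8, 38.9, 34.8, 40.4 and 41.9 CPM in control and at 43.2, 51.3, 49 and 49.6 CPM in TETA, so that its log2 fold change was 0.31 (SE 0.055). Col5a1 rose from 11 ± 2.67 to 19.6 ± 2.32 CPM, and Sparc, a collagen-binding protein gene, fell from 167 ± 4.42 to 137 ± 9.36 CPM. Of 30 TGF-beta and BMP signalling genes 4 fell, led by Bmp7, a secreted signal that meninges also make, from 13.1 ± 1.14 to 9.59 ± 1.44 CPM, and 1 rose. Of the 30, 23 had a log2 fold change below 0, and the level of the list was lower in TETA without overlap, lowest in replicate 1 at -0.109. Without control replicate 2, 3 passed.

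Of other tissue near the cortex little was seen. Of 6 choroid plexus markers tested, Clic6 fell from 1.42 ± 0.524 to 0.467 ± 0.205 CPM. Ttr, the most abundant transcript of that tissue, was at 4 to 1016 counts in control and 7 to 28 counts in TETA, with the highest count in control replicate 4, and it did not pass. No member passed in edgeR among 8 ependymal, 5 blood, 8 neuroblast and 4 olfactory bulb markers. Only the neuroblast list had members with an unadjusted p under 0.05, 2 of them, and DESeq2 and limma voom each called 1 of that list. In edgeR, the neuroblast list gave 1 call without TETA replicate 4 or control replicate 5, and the blood list 1 without TETA replicate 1. Synpo2 of 7 thalamus markers and Fibcd1 of 4 hippocampus markers fell. The call of Synpo2 was lost without TETA replicate 1 or 3 or control replicate 1, 3 or 4. The choroid plexus list gave 2 calls without control replicate 2 or 5.

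The 2 tissue marker levels carried into the fits below separated the groups. The striatal level, over the 35 members, was 0.35 to 0.63 in control and -1.06 to -0.38 in TETA. The meningeal level was 0.07 to 0.23 in control and -0.54 to 0.05 in TETA. TETA replicate 1 had the lowest meningeal level and the highest striatal level of its group, and TETA replicate 3 the reverse. Both levels thus differed between the groups but ran in opposite order between these 2 libraries. Their part in the changes of other lists was not tested beyond the covariate fits.

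**Figure D3:**
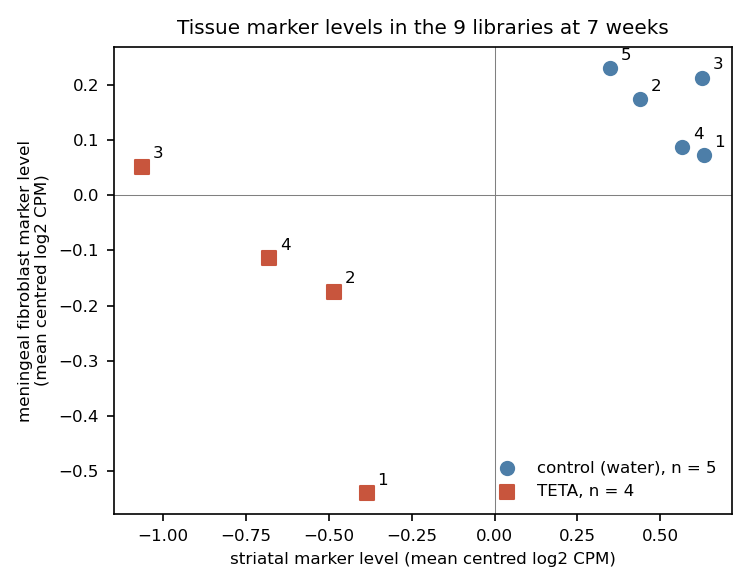
Each point is a library, numbered by replicate, with its striatal marker level on the horizontal axis and its meningeal marker level on the vertical axis, both as mean centred log2 CPM. Control libraries lie at 0.35 or above on the striatal axis and TETA libraries at -0.38 or below.

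Of 60 splicing regulators 24 rose, against 5.67% of all genes tested, and 0 fell, while 36 did not pass. In all, 48 had a log2 fold change above 0, against 50.1% of all genes. The median was 0.10. The rise of Sfpq was known when this list was written. Sfpq (chr4:127020716-127051101), a paraspeckle protein gene, was at 134, 127, 132, 137 and 137 CPM in control and at 166, 167, 173 and 169 CPM in TETA, so that its log2 fold change was 0.34 (SE 0.033). Tra2a (chr6:49243921-49264248), which encodes a splicing activator, was at 73.9, 62.9, 63.4, 62.3 and 71.1 CPM in control and at 92.6, 84.1, 91.5 and 91.8 CPM in TETA. Neither overlapped. Pnisr, an arginine-serine rich protein gene, was at 126 to 151 CPM in control and at 185, 183, 199 and 179 CPM in TETA, and Nktr rose from 108 ± 6.53 to 143 ± 8.3 CPM. Prpf39, a spliceosome gene outside the list, rose from 33.5 ± 1.99 to 45.9 ± 0.826 CPM.

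Nuclear and intron-retaining transcripts, RNAs that are kept in the nucleus or often keep an intron, rose in 17 of 21 members and fell in 0. All 21 had a log2 fold change above 0, with a median of 0.27. The rise of Snhg11 and Ttc14 was known when this list was written. This list shares 9 members with the splicing list, and 8 of the 17 are among them, so 33 of 72 distinct genes of both lists rose. Snhg11 (chr2:158375713-158386474), a neuronal noncoding RNA that hosts a small nucleolar RNA, was at 910, 796, 849, 859 and 1015 CPM in control and at 1354, 1251, 1550 and 1304 CPM in TETA, so that its log2 fold change was 0.62 (SE 0.058). Ttc14 (chr3:33799798-33814860) was at 98.3, 92.1, 91.4, 93.4 and 101 CPM in control and at 128, 121, 130 and 124 CPM in TETA, so that its log2 fold change was 0.40 (SE 0.039). The list level was -0.21 to -0.03 in control and 0.09 to 0.23 in TETA, highest in TETA replicate 3. Total counts overlapped between groups, intron reads cannot be seen in a gene table, and a technical part in this rise was not tested.

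Genes that neurons switch on with activity were higher in part. Of 22 fast early genes 8 rose and 0 fell, and of 9 Egr and Nr4a genes 3 rose and 1 fell. Fosl2 (chr5:32136472-32157840), a Fos family gene, was at 32.2, 26.7, 30.1, 29.8 and 26.7 CPM in control and at 42, 39.7, 39.2 and 38.2 CPM in TETA, so that its log2 fold change was 0.45 (SE 0.056). Fosb was at 13.2, 10.1, 13.2, 12.4 and 8.93 CPM in control and at 18.5, 17.2, 16.7 and 16.5 CPM in TETA, and Klf2, a zinc finger transcription factor gene, at 5.91 to 6.97 CPM in control and at 9.92, 9.98, 10.8 and 9.86 CPM in TETA. None of the 3 overlapped. Egr3 (chr14:70077317-70082613), an early transcription factor gene, was at 166, 156, 172, 164 and 142 CPM in control and at 220, 229, 223 and 235 CPM in TETA, so that its log2 fold change was 0.50 (SE 0.044).

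The early genes used most often as activity markers were less separated. Arc rose from 164 ± 68.2 to 267 ± 41 CPM with overlap between groups. Fos was at 24.5 ± 7.95 and 28.4 ± 3.44 CPM and Npas4 at 18 ± 1.7 and 15.1 ± 2.61 CPM, and neither passed. The list level of the fast early genes was 0.171, -0.278, -0.029, 0 and -0.494 in control replicates 1 to 5 and 0.272, 0.203, 0.077 and 0.08 in TETA replicates 1 to 4. Control replicates 2 and 5 were low, and control replicate 1 lay among the TETA libraries. Control replicates 2 and 5 also had the lowest striatal levels of their group. Striatal projection neurons express early genes as cortical neurons do, and the part of tissue in these values was not tested beyond the covariate fits.

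Of 21 late activity genes 5 rose, led by Nptx1 and by Ptgs2, a prostaglandin synthesis gene, from 12.7 ± 0.675 to 15.2 ± 0.951 CPM, and 2 fell, Tac1 and Scg2. The call of Ptgs2 was lost without TETA replicate 3 or 4, and 4 members of the list passed without TETA replicate 1 or 4 or control replicate 1, 4 or 5. Of 24 genes of MAPK and CREB feedback 2 rose and 2 fell. Dusp5 (chr19:53529145-53541809), an ERK phosphatase gene, was at 10.5, 8.01, 7.52, 8.84 and 7.13 CPM in control and at 16.1, 16.3, 12.6 and 12.3 CPM in TETA, so that its log2 fold change was 0.77 (SE 0.11).

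The clock genes gave 1 rise and 3 decreases of 21 tested, with a list median of 0.05. Cry1 (chr10:85131700-85185054), a repressor of the clock, was at 21.1, 20.7, 25.1, 23.3 and 21.2 CPM in control and at 16.4, 17, 16.2 and 16.7 CPM in TETA, so that its log2 fold change was -0.42 (SE 0.064). Dbp, a clock output gene, fell from 98 ± 6.57 to 81.4 ± 2.5 CPM, and Bhlhe40, a repressor that also responds to activity, rose from 140 ± 23.5 to 180 ± 11.5 CPM. Rorb, which is also a layer 4 marker, fell by 0.18 on the log2 scale, a call lost without TETA replicate 1, 2 or 3 or control replicate 1, 2, 3 or 4. The time of tissue collection is not given in the sources used here.

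Stress genes rose in small numbers. Of 26 heat shock and chaperone genes 7 rose and 1 fell, but without TETA replicate 3 only 3 of the list passed. Hspa1b (chr17:34956429-34959238), an inducible chaperone gene, was at 6.54, 5.24, 6.23, 5.36 and 3.95 CPM in control and at 6.83, 7.3, 9.42 and 11.3 CPM in TETA, highest in TETA replicate 4. Its near copy Hspa1a can share reads with it, so the 2 are uncertain apart. Of 22 genes of the unfolded protein response 5 rose and 1 fell. That count was 0 without TETA replicate 3, 2 without TETA replicate 4, and 3 without control replicate 1, 4 or 5. Hspa5, the main endoplasmic reticulum chaperone gene, rose from 221 ± 14.9 to 261 ± 27.7 CPM with overlap between groups, a call lost without TETA replicate 3. Of 25 hypoxia and glycolysis genes 5 rose and 2 fell, 4 in all without TETA replicate 3 or control replicate 2. Ddit4 (chr10:59949675-59951770), a stress-induced inhibitor of mTOR, was at 50.4, 44.4, 46.8, 43.5 and 49.9 CPM in control and at 82, 74.8, 67.2 and 53.6 CPM in TETA, so that its log2 fold change was 0.56 (SE 0.083). Gapdh, a glycolysis gene, fell by 0.10 on the log2 scale, a call lost without TETA replicate 1 or 4.

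Cdkn1a (chr17:29090979-29100722), a cell cycle inhibitor gene, was at 21.1, 19.9, 17.2, 16.9 and 19.4 CPM in control and at 26.6, 27.9, 27.8 and 28.3 CPM in TETA, so that its log2 fold change was 0.55 (SE 0.063). Ccnd1 was the only other of 25 cell cycle genes to pass, and its call was lost without TETA replicate 1, 3 or 4 or control replicate 3 or 4. The largest increases among called genes with a mean of at least 1 CPM in either group were Depp1, an autophagy regulator gene, Tmem252, Tnfrsf25, a death receptor gene, Htr5b, whose call was lost without TETA replicate 1, and Gm49322. Depp1 was at 0.218, 0.587, 0.483, 0.562 and 0.73 CPM in control and at 2.32, 2.56, 1.5 and 0.722 CPM in TETA, so TETA replicate 4 lay within the control range, and its log2 fold change was 1.76 (SE 0.33). Tnfrsf25 rose from 4.23 ± 0.656 to 9.28 ± 1.46 CPM. Among the 10 clearest increases were Rskr, a kinase-like gene, from 9.73 ± 0.629 to 18.7 ± 3.25 CPM, Ubn2, a histone chaperone subunit gene, from 48.1 ± 2.26 to 65.7 ± 3.92 CPM, and Igsf9b, a synaptic adhesion gene of interneurons, from 144 ± 4.15 to 194 ± 16 CPM.

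Of 30 copper handling genes 1 rose and 0 fell, where 5.67% and 4.28% of all genes did. Their log2 fold changes ran from -0.86 to 0.33, with a median of -0.03. Slc31a2 (chr4:62280393-62298412), a vesicular copper transporter gene, was at 7.24, 6.29, 6.82, 6.95 and 7.51 CPM in control and at 9.49, 7.8, 8.56 and 8.95 CPM in TETA, and its call was lost without TETA replicate 1, 3 or 4 or control replicate 2. The list gave 2 calls without TETA replicate 2 or control replicate 1, and 0 without TETA replicate 1 or 4 or control replicate 2. Slc31a1, the plasma membrane copper importer gene, was at 23.5 ± 1.67 and 22.8 ± 0.508 CPM, and Atp7a, a copper exporter gene, at 7.59 ± 0.798 and 8.52 ± 0.606 CPM. Atox1 and Ccs, which deliver copper, and Sod1, which receives it from Ccs, had log2 fold changes of -0.05 (SE 0.09), -0.06 (SE 0.087) and -0.06 (SE 0.04).

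Metallothioneins, which bind copper and zinc, did not pass. Mt1 was at 106, 120, 103, 105 and 139 CPM in control and at 106, 107, 105 and 93.4 CPM in TETA, and the groups overlapped. Mt2 was at 64.7 ± 7.92 and 62.2 ± 6.59 CPM and Mt3 at 181 ± 14.3 and 163 ± 16.4 CPM. No gene passed of the 20 in their list in edgeR, DESeq2 or limma voom, 4 had an unadjusted edgeR p under 0.05, and the list median was -0.05. Mt3 passed without TETA replicate 1, and Slc39a12, a zinc transporter gene, without control replicate 3. Of 17 iron genes Slc25a37, the mitochondrial iron importer gene, rose, and Aco1 and Tfrc fell. The call of Tfrc was lost without TETA replicate 2. Of 21 NRF2 targets Gpx1 alone passed and of 13 lipoylation genes Pdha1 alone, both lower. The NRF2 list gave 0 calls without TETA replicate 1, 2 or 4 or control replicate 2, 3, 4 or 5. The lipoylation list gave 0 calls without TETA replicate 1, 3 or 4 or control replicate 1, 2, 3 or 4, and 2 without TETA replicate 2.

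Most mitochondrial and ribosomal genes had small fold changes below 0, and few passed. All 23 ATP synthase and complex III genes had a log2 fold change below 0, with a median of -0.07, and 3 passed: Atp5a1, Atp5o and Atp5b. Without TETA replicate 2 or 3 or control replicate 2, 1 passed. Of 37 complex I genes 30 were below 0 and 0 passed in edgeR, DESeq2 or limma voom, with 4 at an unadjusted edgeR p under 0.05. Without TETA replicate 1, 3 complex I genes passed: Ndufa3, Ndufa13 and Ndufs6. Of 31 genes of cytochrome c oxidase, the copper enzyme, 25 were below 0 and Cox4i1 passed. That list gave 2 calls without TETA replicate 1 or control replicate 1, and 0 without any other single library. Of 76 ribosomal protein genes 2 fell, Rpsa and Rps2, but 10 passed without TETA replicate 1, 0 without TETA replicate 4, and 1 without TETA replicate 3 or control replicate 2, 3 or 5. The list levels of these groups overlapped between control and TETA: the ATP synthase list was at -0.04 to 0.13 in control and -0.14 to 0.05 in TETA, with TETA replicate 1 highest in its group. That library stood highest also in the ribosomal list, at 0.102 against -0.088 to -0.021 in the other TETA libraries.

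**Figure D4:**
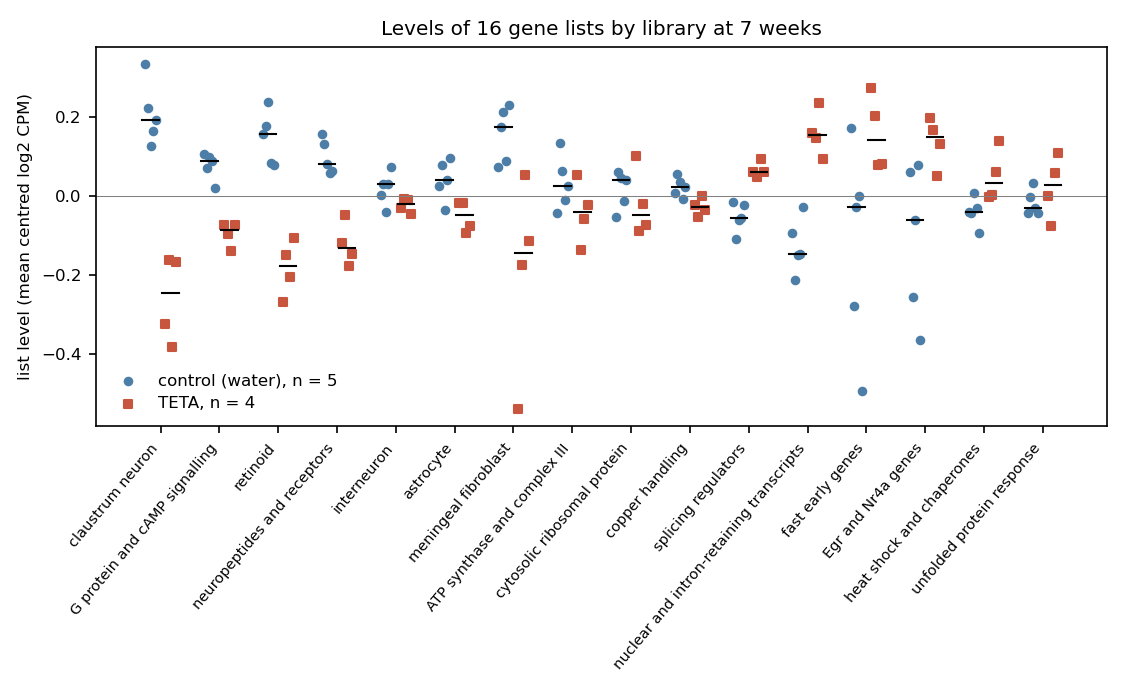
Points are the levels of 16 lists in each library, as mean centred log2 CPM, with short black lines at the group medians. The splicing and nuclear transcript lists lie higher in all TETA libraries, the claustrum, cyclic AMP, retinoid, neuropeptide and meningeal lists lower, and the ATP synthase, ribosomal, copper and chaperone lists overlap.

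Genes of potassium channels and of glutamate receptors and transporters fell in larger shares than all genes tested, with 20% and 17.2% lower against 4.28%, and no list of channel or synaptic genes here had over 8.82% higher, against 5.67%. Of 45 potassium channel genes 9 fell and 2 rose. Kcnj2, an inward rectifier gene, fell from 29.6 ± 4.64 to 19.6 ± 1.87 CPM, and Kcnd2, Kcnj4 and Kcnab1 fell by 0.22, 0.21 and 0.29 on the log2 scale. Of 31 sodium, calcium and HCN channel genes 4 fell, with Scn4b, a striatal sodium channel subunit gene, from 291 ± 20.7 to 153 ± 20.1 CPM, and 2 rose, with Cacna1g, a T-type calcium channel gene, from 111 ± 5.11 to 131 ± 10.7 CPM. Of 29 glutamate receptor and transporter genes 5 fell and 0 rose. That count was 2 or 3 without TETA replicate 1, 2 or 3 or control replicate 1, 2 or 4. Of 34 vesicle release genes 3 rose and 2 fell, shares near those of all genes: Rims3, Unc13b and Snap25 rose and Sv2c, a synaptic vesicle gene of the basal ganglia, and Doc2b fell. Sv2c went from 46.7 ± 1.46 to 32.6 ± 3.32 CPM.

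Of 44 axon guidance genes 5 rose and 4 fell, and 5 in all passed without TETA replicate 3. Sema4a (chr3:88435959-88461182), a semaphorin gene, was at 50.3, 50.9, 47.1, 48 and 47.4 CPM in control and at 62.2, 60.9, 68 and 65.1 CPM in TETA, so that its log2 fold change was 0.39 (SE 0.043), and Slit2, a guidance ligand gene, fell from 58.8 ± 2.63 to 47.2 ± 2.12 CPM. Of 41 autism-associated genes Kmt2a and Kdm6b rose and Nlgn1, Foxp1 and Shank3 fell. Without TETA replicate 1 or 3, 3 passed, and Foxp1 is also a striatal gene. Of 34 mTOR genes 2 rose and 3 fell, with 2, 3 and 2 passing without TETA replicate 3, control replicate 2 and control replicate 4. Of 31 Wnt genes 4 rose, led by Dkk3, and 2 fell, Apc and Ctnnb1.

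In the smaller lists, 2 of 29 autophagy genes fell, Ulk2 and Ctsl, and 2 of 24 cholesterol synthesis genes, among them Sqle. The autophagy list gave 1 call without TETA replicate 4 or control replicate 2 or 3. The cholesterol list gave 1 without TETA replicate 2 or 3 or control replicate 1, 2, 3 or 4. Ifit3 of 25 interferon and antigen presentation genes fell. That list gave 0 calls without TETA replicate 2 or control replicate 1 or 2, and 2 without control replicate 4. Of 18 selenoprotein genes Lrp8 rose and Sephs2 and Gpx1 fell, with 0 passing without TETA replicate 4 or control replicate 5, and 1 without TETA replicate 3 or control replicate 2 or 3.

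Refitting all genes with a tissue marker level as a covariate asks how far the group difference stands apart from it. With the meningeal level, 457 genes (3.21%) passed. Of the 1418, 418 passed again and 1416 kept their sign. In this fit all 22 shared striatal markers, 15 of 60 splicing regulators and 11 of 21 nuclear transcripts passed. The level is the mean of the meningeal markers, so nothing can be read from their own values in this fit, and it did not overlap between groups either, by a narrow gap. The median over the fast early genes went from 0.28 to 0.08, and 2 of 22 passed.

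With the striatal level, 6 genes passed, and 1206 of the 1418 kept their sign. The median SE of all genes went from 0.0593 to 0.188. The level did not overlap between groups, so it and the treatment cannot be told apart in these 9 libraries. The level is also built from striatal genes, so nothing can be read from their values in this fit. At an unadjusted p under 0.05, 2.64% of all genes were higher and 2.54% lower. Lists with many such members were fast early genes, with 14 of 22 higher and a median of 0.85, Egr and Nr4a genes, with 7 of 9 higher, and meningeal fibroblast markers, with 16 of 24 lower and a median of -1.15. Other lists above those shares included ependymal markers, with 3 of 8 higher and a median of 0.78, endothelial markers, with 4 of 17 higher, and oligodendrocyte markers, with 3 of 17 higher. Lower members made up 5 of 25 in the interferon list, whose median was -0.51, 6 of 30 in the collagen list, 4 of 17 in the retinoid list and 3 of 30 in the copper list. The 4 retinoid genes include Rxrg, a member of the level, so nothing can be read from its part in that count. Of the splicing regulators 6 of 60 were higher, with a median of 0.05, and of the nuclear transcripts 3 of 21, with a median of 0.15. The 6 genes, named for passing this fit, were Mgp, Ptgds, Slc47a1, a meningeal transporter gene, Slc13a3 and Slc26a2, also transporter genes, which were lower, and Utp14b, which was higher.

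**Figure D5:**
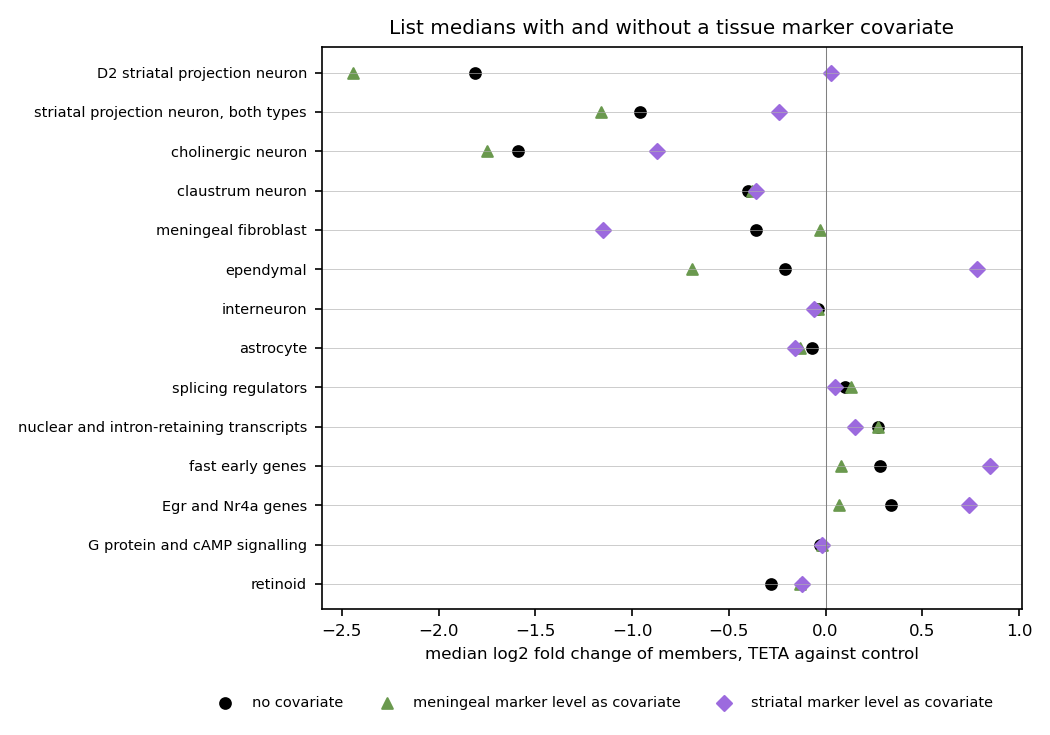
Symbols give the median log2 fold change of TETA against control over the tested members of 14 lists, from the fit without a covariate (circles), with the meningeal level (triangles) and with the striatal level (diamonds). The meningeal median goes from -0.36 to -1.15 with the striatal level, and the fast early median from 0.28 to 0.08 with the meningeal level and to 0.85 with the striatal level. The lists shown whose members make up a level move towards 0 with that level by construction. The D1-type striatal list, not shown, went past 0 with the striatal level, from -0.37 to 0.35.

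Within groups, with the treatment in the model, the slope on the striatal level passed for 12 genes, all positive. Of these, 10 were members of the striatal lists that make up the level, so their slopes are built in. The other two, picked after their values were seen, were Cd4 and Sh3rf2. Cd4 fell in TETA from 7.21 ± 1.09 to 1.98 ± 0.937 CPM and Sh3rf2 from 5.24 ± 1.23 to 1.04 ± 0.515 CPM. The slope on the meningeal level passed for Ptgds alone, a member of that level.

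The difference between the TETA effect at 7 weeks and that at E18.5 was tested in a fit of all 21 libraries. The E18.5 libraries carry compound numbers such as 1-1 and 1-2, whose meaning is not given in the sources used here. Each was taken as a separate sample, so the SEs may be too small if libraries with the same first number are related. The difference passed for 437 of 15292 genes (2.86%), 239 higher and 198 lower at 7 weeks than at E18.5. It passed for 247 without TETA replicate 3 of the 7-week libraries. In the E18.5 table, 1940 genes that are at 0 in control replicate 1-1 hold multiples of 11 in every other library, for a reason not given in the sources used here, and 454 genes passed with those values divided by 11. Region and sex at E18.5 are not given in the sources used here. The shared striatal list held 17 such genes of 22, the nuclear transcripts 13 of 21 and the splicing regulators 17 of 60, while the fast early genes held 1 of 22 and the meningeal markers 2 of 24. Drd2 differed by -2.34 (SE 0.22), with a log2 fold change of -0.01 (SE 0.13) at E18.5, Sfpq by 0.40 (SE 0.05), with -0.07 (SE 0.032) at E18.5, and Snhg11 by 0.68 (SE 0.11), with -0.07 (SE 0.074) at E18.5. Klf2 differed by 0.76 (SE 0.13) and Nr4a2 by -0.61 (SE 0.11). Egr3 differed by 0.33 (SE 0.098) with an adjusted p of 0.0721 in edgeR and did not pass.

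The called genes had longer transcripts than the genes tested as a whole, and the directions differed in gene span. The median transcript length was 3261 bases over all genes with annotation, 3714 among the higher and 3880 among the lower genes. The median number of exons was 9 over all, 12 among the higher and 10 among the lower genes, and 8.71% of the genes in the fifth with the most exons were higher. The median genomic span was 23942 bases over all, 24834 among the higher and 38430 among the lower genes, and 7.66% of the genes in the fifth with the longest span were lower. Longer transcripts gather more counts, and no test was made of these features.

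Of the genes tested, 11273 matched 14503 promoter windows of the same length as those printed. The core TGACG was in 29.2% of all windows, in 31.6% of those of higher genes and in 22.9% of those of lower genes, and in 40% of the 75 windows of the splicing regulators. It includes the matches inside the full element TGACGTCA, which was in 2.88% of all windows. The metal response element was in 35.6% of all windows, 35.1% of the windows of higher genes and 38.8% of those of lower genes. It was in 53.3% of the 30 windows of the striatal genes that fell, in 48% of those of the splicing regulators and in 50% of the 8 windows of the early, Egr and Nr4a genes that rose. The core TGACG was in 13.3% of those 30 windows. The GC box was in 60.6% of all windows and in all 8 windows of those early genes.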

How the data were processed

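Poly(A) RNA of mouse prefrontal cortex was sequenced from stranded libraries, per the labels' protocols. The authors deposited whole-number read counts per gene symbol for each library, which at 7 weeks have the form of raw counts, and STAR 2.7.1a, featureCounts 2.0.1 and the build mm10 are named per the submitters' processing notes. The annotation, the strand setting and any filter of the counting are not given in the sources used here, so reads of overlapping, antisense or near-identical genes may be shared.

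Genes were kept by edgeR's filterByExpr with a minimum count of 10, scaled with TMM factors and tested in edgeR 4.0.16 (R 4.3.3) by the quasi-likelihood test over the 5 control and 4 TETA libraries, with Benjamini-Hochberg adjustment over all genes tested and a threshold of 0.05. CPM are counts scaled to a common total with TMM-corrected library sizes. A standard error is the absolute log2 fold change over the root of F. The age difference was fitted over all 21 libraries.

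Genes were named by rule: the 10 higher and 10 lower genes of smallest p without overlap between groups, the 5 of largest fold each way, up to 4 called members of each list with the smallest p, the first 2 markers of each cell class, and 9 copper and metallothionein genes. A few genes that the rule names are not reported here. The comparison, the lists and this rule were chosen with earlier results of these data known. Alternatives were no filter, a mean of 50 counts, DESeq2 1.42.0, its size factors, no TMM, limma 3.58.1 voom, a replicate block, tissue level covariates and leaving out each library. The fits were tested on simulated data. Promoters are from RefSeq, and coordinates are of GRCm38.p6.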

Additional observations from a re-analysis of the deposited data

Results flagged for a closer look

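Of 202 groups of 4 or 5 libraries examined for a value far from the others of its group, 7 passed, and chance passes about 1 in 20. Tra2a was at 6.39 log2 CPM in TETA replicate 2 against 6.52 to 6.54 in the other TETA libraries, Klf2 at 3.44 in TETA replicate 3 against 3.32 to 3.33, and Mt1 at 6.55 in TETA replicate 4 against 6.72 to 6.74. Among list levels, the oligodendrocyte precursor list was at 0.03 in TETA replicate 2 against -0.06 to -0.04, and the choroid plexus list at 1.55 in control replicate 4 against -0.45 to 0.01. The olfactory bulb list was at -0.30 in TETA replicate 4 against -0.03 to -0.02, and the potassium channel list at 0.01 in the same library against -0.05 to -0.04.

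The TETA effect differed between 7 weeks and E18.5 for 437 genes in edgeR's test of the difference. On the log2 scale the effect at 7 weeks minus that at E18.5 was -2.21 for Adora2a, -1.36 for Rgs9, -2.34 for Drd2, -1.52 for Penk, -2.53 for Chat and -0.61 for Nr4a2. It was 0.68 for Snhg11, 0.40 for Sfpq, 0.43 for Tra2a and 0.76 for Klf2.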

How the results depend on the processing

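The count of 1418 called genes was 1376 to 1483 with DESeq2, with its size factors, with voom, without TMM factors, without a filter or with a stricter one (mean count 50). It was 457 with the meningeal level and 6 with the striatal level as a covariate, and 927 to 1392 with 1 library left out, lowest without TETA replicate 3. The count of 437 for the difference between ages was 391 to 584 under the other fits of all libraries, with 454 where the E18.5 multiples of 11 were divided by 11, and 247 to 574 with 1 library left out, lowest without TETA replicate 3 of the 7-week libraries. With the replicate number as a block, 1063 genes were called at 7 weeks and 391 for the difference between ages. Same-numbered control and TETA libraries did not deviate together over all genes (correlations of -0.0692 to -0.0295). This cannot decide whether the numbers pair them, since pairing that touched few genes would not show in such correlations.

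With the striatal level as a covariate, 21 named genes that were called without it changed sign: Cacna1g to -0.19, Clic6 to 0.45, Drd1 to 0.36, Drd2 to 0.23, Foxp1 to 0.09, Gm49322 to -0.15, Gpr6 to 0.38, Hspa5 to -0.09, Isl1 to 1.29, Lrp8 to -0.03, Otof to -0.10, Robo3 to -0.24, Rorb to 0.05, Rps6kb2 to -0.03, Scg2 to 0.03, Sdf2l1 to -0.36, Six3 to 1.36, Sqle to 0.08, Synpo2 to 0.03, Syt6 to 0.05 and Unc13b to -0.04. Named genes that were not called also changed sign, such as Foxp2 (-0.23 to 0.26) and Mbp (-0.06 to 0.20), and are not in this count. Drd1, Drd2, Gpr6, Isl1 and Six3 are members of that level, so their change follows from its construction, and for the other genes the cause was not tested. Of 196 named genes, 136 more lost their call in that fit and 79 with the meningeal level. The block lost 22 calls and leaving out 1 library 9 to 28. Depth limits genes of few counts, such as Six3, Isl1 and Slc10a4, which all have a count of 0 in TETA replicate 3.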
